A study of Capra hircus with 6 samples.

Results

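The most abundant long noncoding RNAs (lncRNAs) of the goat hypothalamus were described: the transcripts of the lncRNA table that were chosen by their length and level, with more than 300 nt, a value above 0 in each of the 6 libraries and 5 FPKM or more as the mean. FPKM is the number of fragments of a transcript scaled by its length and by the mapped fragments of the library. This selection on measured values gave 68 transcripts from 67 loci out of 2943 lncRNA transcripts from 2551 loci, or 2.31% of the transcripts. The data came from the hypothalamus of 6 female Anhuai goats, 3 pubertal and 3 prepubertal, with 1 library per goat. Puberty was recognised by estrus and the look of the vulva, and the pubertal goats were taken in the late follicular phase. The pubertal goats were also older and heavier, so stage, age and phase of the cycle cannot be told apart. No animal was treated or genetically altered.

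LncRNAs are transcripts longer than a small RNA that hold no long coding frame. Some act in the nucleus on the transcription of nearby genes, some act as scaffolds for proteins, and for many no function is known. Most are present at lower levels than mRNAs, and brain is among the tissues that express many of them. The hypothalamus holds the neurons that release gonadotropin-releasing hormone, whose secretion drives puberty. The lncRNAs here carry assembly numbers in place of gene names: TCONS for a transcript and XLOC for its locus.

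Of the 2453 lncRNAs longer than 300 nt, 1478 were above 0 in all 6 libraries. A mean of at least 5 FPKM was reached by 70 of the longer transcripts, of which 2 were listed at 0 in at least 1 library and were left out (TCONS_01856495 and TCONS_01392280). Another 71 transcripts reached this mean at a length of 300 nt or less and were not included. Just inside the threshold stood TCONS_03700065 with a mean of 5.19 FPKM and TCONS_01522130 with 5.12. Just outside it stood TCONS_01243202 with 4.95 FPKM and TCONS_00886716 with 4.95. The selected lncRNAs fell off steeply in level: 12 had a mean of at least 20 FPKM, 26 had at least 10, and 42 lay under 10, with a median of 8.52 FPKM.

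Sequences of 3 of the most abundant lncRNAs are given as cases, which do not stand for the others. The transcript of highest mean level, TCONS_03476274, was 316 nt long, and its first 300 bases are given, with no base in capitals.
TCONS_03476274: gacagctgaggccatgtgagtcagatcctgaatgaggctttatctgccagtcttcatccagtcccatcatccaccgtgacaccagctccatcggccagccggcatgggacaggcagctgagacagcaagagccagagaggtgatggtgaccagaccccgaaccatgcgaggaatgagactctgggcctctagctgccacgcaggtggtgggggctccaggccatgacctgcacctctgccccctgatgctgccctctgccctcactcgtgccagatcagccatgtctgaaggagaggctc

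TCONS_00151701, which ranked at 3, began with a sequence that is known from textbooks as the U1 small nuclear RNA, the part of the spliceosome that recognises the start of an intron. Bases 1 to 156 of its 411 are given below, followed by bases 1 to 148 of TCONS_02513123 from another locus, which matched them over 148 nt with 99.3% identity. Capitals mark AATTTGTGG, the place where the Sm proteins bind U1. The assembled transcript lacked the first bases of U1.
TCONS_00151701: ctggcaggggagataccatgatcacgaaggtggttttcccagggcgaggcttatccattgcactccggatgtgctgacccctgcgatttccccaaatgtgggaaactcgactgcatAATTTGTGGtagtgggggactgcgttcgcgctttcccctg
TCONS_02513123: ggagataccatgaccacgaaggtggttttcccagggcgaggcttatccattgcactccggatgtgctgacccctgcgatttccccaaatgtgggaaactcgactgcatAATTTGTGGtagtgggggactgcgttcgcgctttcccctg

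The letters AATTTGTGG stood on either strand in 3 of the 68 abundant lncRNAs (4.41%) and in 30 of all 2943 (1.02%). TCONS_02513123 was 2119 nt long and was not among the 68. How much of the FPKM of TCONS_00151701 came from fragments of U1 itself was not tested.

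TCONS_03684134 (XLOC_1769251, 377 nt) had an open frame that ran for 40 codons from base 51 to a stop codon. This frame reads as the membrane-spanning end of the constant region of the T cell receptor beta chain, which is part of a protein-coding gene. The reading rests on general knowledge of the sequence, as for U1, and no reference sequence was aligned. TCONS_03684134 was chosen after its sequence had been seen. Its frame with the stop codon in capitals and its last 30 bases with the poly(A) signal in capitals are given.
TCONS_03684134 frame: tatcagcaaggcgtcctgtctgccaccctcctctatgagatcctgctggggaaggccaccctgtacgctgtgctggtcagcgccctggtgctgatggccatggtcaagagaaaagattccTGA
TCONS_03684134 end: actgaacttactgaaccAATAAAcatggcc

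A pair near the top of the order shared sequence: TCONS_03682656 (XLOC_1764922, 3216 nt) at rank 2 and TCONS_00183339 (XLOC_099008, 2351 nt) at rank 4. They aligned over 1193 nt with 75.9% identity, and within this stretch they held 258 bases that differed at 1 position, printed in capitals below. The longest run without a difference was 186 bases. Reads that lie wholly in such a run cannot be given to 1 of both loci by their own sequence, though the other read of a pair may place them. How far this touched the levels was not tested.
TCONS_00183339: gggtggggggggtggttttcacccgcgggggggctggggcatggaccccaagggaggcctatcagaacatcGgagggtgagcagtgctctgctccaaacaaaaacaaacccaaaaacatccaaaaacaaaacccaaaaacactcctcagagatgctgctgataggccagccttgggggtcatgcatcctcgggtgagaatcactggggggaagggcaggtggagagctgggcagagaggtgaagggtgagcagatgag
TCONS_03682656: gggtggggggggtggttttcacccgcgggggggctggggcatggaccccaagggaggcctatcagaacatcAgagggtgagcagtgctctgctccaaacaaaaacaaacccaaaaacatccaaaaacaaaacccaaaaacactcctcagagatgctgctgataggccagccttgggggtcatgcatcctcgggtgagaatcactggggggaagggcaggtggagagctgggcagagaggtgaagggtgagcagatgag

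The levels of the leading lncRNAs differed in how steady they were from goat to goat. TCONS_03476274 (XLOC_1715327) had 75.9, 37.7 and 34.3 FPKM in the pubertal libraries 1, 2 and 3 and 55.8, 55.6 and 66.4 in the prepubertal libraries. Pubertal replicate 1 held the highest value and the other 2 pubertal libraries the lowest, so the stages overlapped. TMEM125, a membrane protein gene that the study lists within 10 kb of this locus, had a mean of 18.3 FPKM.

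TCONS_03682656 had 42.9, 35.0 and 50.9 FPKM in the pubertal libraries and 35.7, 43.3 and 51.4 in the prepubertal libraries. TCONS_03682654 (XLOC_1764923, 1700 nt, rank 7), from the locus with the next number, had 21.8, 21.1 and 30.4 FPKM in the pubertal and 19.1, 28.6 and 31.0 in the prepubertal libraries. Both were high in pubertal replicate 3 and prepubertal replicate 3, and in both the stages overlapped. Both loci lay within 10 kb of COPG2, which encodes a subunit of the coatomer that coats transport vesicles and had a mean of 41.4 FPKM, between 36.7 and 45.5 per library. TCONS_00183339, the related transcript at rank 4, had 39.2, 24.8 and 44.7 FPKM in the pubertal libraries and 27.2, 29.2 and 33.4 in the prepubertal libraries. Its lowest library was pubertal replicate 2, which was also the lowest for TCONS_03682656.

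TCONS_00151701 (XLOC_083680), with the U1 sequence, had 20.7, 26.9 and 61.6 FPKM in the pubertal and 72.2, 32.1 and 24.7 in the prepubertal libraries. A single library of each stage stood high, pubertal replicate 3 and prepubertal replicate 1, and the other 4 lay between 20.7 and 32.1. TCONS_03153667 (XLOC_1513626, 5827 nt) was the opposite case, with 31.9, 31.2 and 29.3 FPKM in the pubertal and 29.1, 28.7 and 28.5 in the prepubertal libraries. Each pubertal library was above each prepubertal library, by a small margin. The locus lay within 10 kb of PSD3, a gene for an activator of small GTPases of the ARF family, which had a mean of 48.5 FPKM.

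The other transcripts of the leading 10 were TCONS_04433724 (XLOC_2091635, 311 nt, mean 27.4 FPKM), TCONS_01976358 (XLOC_989763, 815 nt, 21.8), TCONS_04294308 (XLOC_2036925, 311 nt, 21.6) and TCONS_02735587 (XLOC_1307352, 1912 nt, 21.1). TCONS_04433724 lay between 22.2 and 34.2 FPKM over the 6 libraries. TCONS_02735587 lay between 18.1 and 25.8 FPKM, and PACSIN1, a gene for a neuronal protein of vesicle uptake within 10 kb of it, had a mean of 40.5 FPKM. When the lncRNAs longer than 300 nt were ranked within each library, 6 of the leading 10 were among the first 10 in all 6 libraries. TCONS_03476274 ranked between 1 and 4, TCONS_03682656 between 2 and 3, and TCONS_00151701 between 1 and 10. At the level of TCONS_03476274, 5.99% of the transcripts of the mRNA table stood as high or higher, and at that of TCONS_02735587, 15.6% did.

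**Figure D1:**
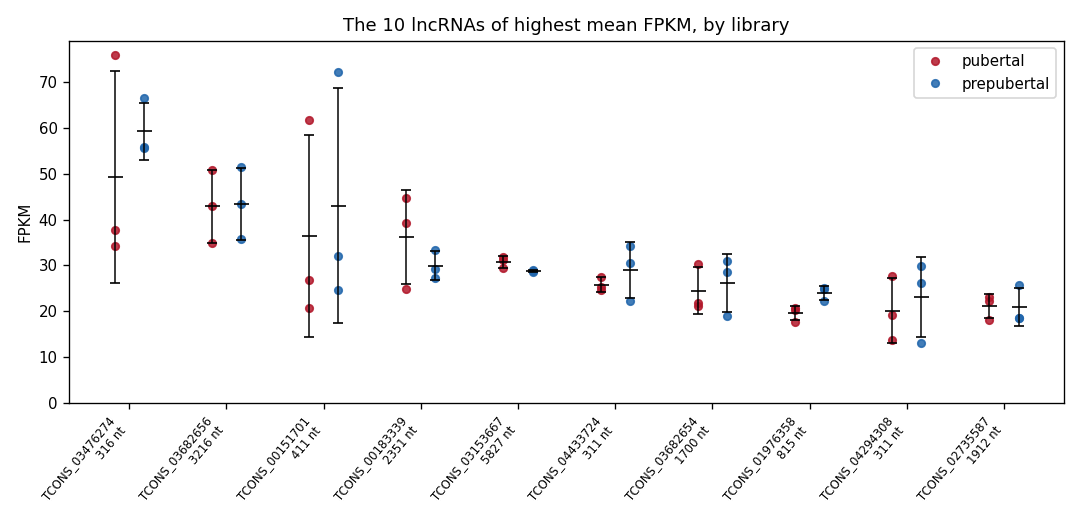
FPKM of the 10 lncRNAs of highest mean level, with 1 point per library in red for the 3 pubertal and blue for the 3 prepubertal goats, and black bars for the mean and SD of a stage. TCONS_03153667 is tight at 28.5 to 31.9 FPKM, whereas TCONS_00151701 spans 20.7 to 72.2 with 1 high library in each stage.

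The locus XLOC_2036925 gave 2 of the 68 transcripts, and its neighbour UBXN6, a gene for a cofactor of the protein-unfolding enzyme p97, had a mean of 32.7 FPKM. TCONS_04294308 had 27.6, 19.1 and 13.6 FPKM in the pubertal and 13.2, 29.8 and 26.1 in the prepubertal libraries. TCONS_04294309 (693 nt) had 9.35, 7.57 and 9.29 FPKM in the pubertal and 11.7, 7.39 and 7.50 in the prepubertal libraries. Both begin with the same 264 bases. In prepubertal replicate 1 the short transcript was at its lowest and the long one at its highest.

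Together the 68 transcripts made up 17.1% to 20.1% of the lncRNA FPKM sum, depending on the library. The share was 18.6% ± 1.49 (SD, n = 3) in the pubertal and 19.4% ± 0.413 (SD, n = 3) in the prepubertal goats, and the ranges of the stages overlapped. Of the sum over lncRNAs longer than 300 nt they held 29.4% to 32.1%. The leading 10 alone held 6.50% to 7.70% of the sum over all lncRNAs. As the transcripts were chosen for their level, these shares are descriptive.

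**Figure D2:**
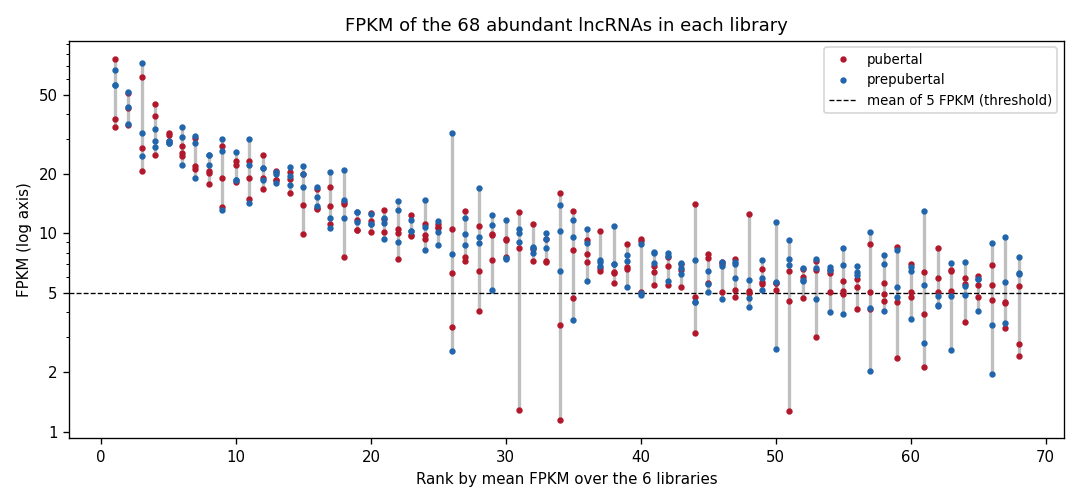
FPKM on a log axis of each of the 68 lncRNAs in the 6 libraries, ordered by rank of the mean, with grey bars from the lowest to the highest library. Single libraries near 1 FPKM stand out for TCONS_03895552 (rank 31), TCONS_01707153 (rank 34) and TCONS_01962857 (rank 51), and a single library of 32.1 FPKM for TCONS_00054873 (rank 26).

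Spread within a stage was measured as the coefficient of variation (CV, the SD over the mean of the 3 libraries), averaged over the 2 stages. The median CV of the 68 was 20.4%, with a range from 2.62% to 82.4%. It was 18.1% in the pubertal and 19.9% in the prepubertal libraries. The highest library exceeded the lowest by less than 1.5-fold for 20 of the 68 and by 3-fold or more for 14.

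The spread was wider in short transcripts. The 20 lncRNAs of up to 500 nt had a median CV of 32.4%, the 24 of over 500 and up to 1500 nt had 19.8%, and the 24 longer ones had 15.2%. Of the 14 with a 3-fold range, 9 were at most 500 nt long and 1 was longer than 1500 nt. The same order by length was seen in the 476 lncRNAs of 1 to 5 FPKM that were longer than 300 nt and above 0 in all libraries, with medians of 52.0%, 32.2% and 20.3%. Since no read counts were used, the depth behind a value is unknown, and the part of counting error in these spreads was not tested.

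**Figure D3:**
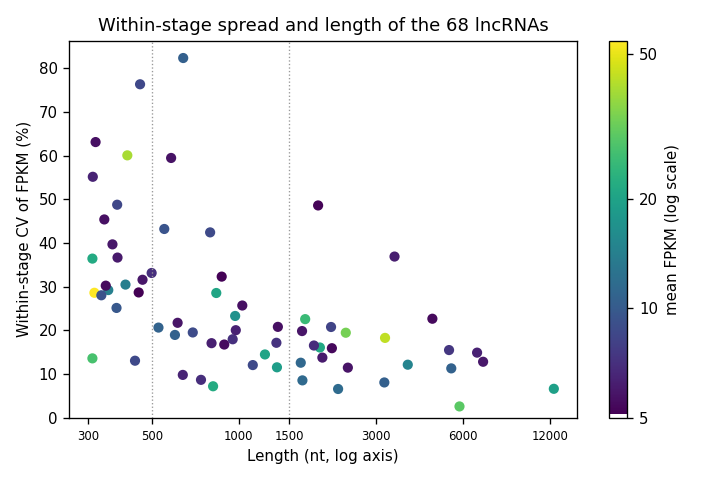
Within-stage CV of FPKM in percent against length in nt on a log axis for the 68 lncRNAs, coloured by mean FPKM, with dotted lines at 500 and 1500 nt. The median CV falls from 32.4% in the shortest band to 15.2% in the longest, and values over 50% occur only under 1500 nt.

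The steadiest lncRNAs after TCONS_03153667 (CV 2.62%) were TCONS_02847604 (XLOC_1378904, 2211 nt) with 6.61% and TCONS_00895218 (XLOC_475183, 12375 nt) with 6.65%. TCONS_02847604 had 10.3, 10.4 and 11.7 FPKM in the pubertal and 11.4, 12.8 and 12.8 in the prepubertal libraries. It lay within 10 kb of NEDD4L, a ubiquitin ligase gene with a mean of 13.0 FPKM. TCONS_00895218, the longest of the 68, had 20.7, 18.6 and 18.5 FPKM in the pubertal and 19.8, 20.5 and 17.9 in the prepubertal libraries. The stages overlapped for both.

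The widest spreads were those of TCONS_00054873 (XLOC_032671, 642 nt, CV 82.4%), TCONS_01707153 (XLOC_868598, 455 nt, 76.4%) and TCONS_02612186 (XLOC_1269939, 319 nt, 63.1%). TCONS_00054873 had 3.37, 10.6 and 6.33 FPKM in the pubertal and 7.84, 32.1 and 2.57 in the prepubertal libraries. TCONS_02612186 had 2.12, 6.41 and 3.90 FPKM in the pubertal and 5.50, 13.0 and 2.81 in the prepubertal libraries. Both peaked in prepubertal replicate 2. FEZF2, a forebrain transcription factor gene within 10 kb of TCONS_02612186, was also highest there, at 2.42 FPKM against 0.897 to 1.49 in the other libraries.

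TCONS_01707153 had 16.0, 1.15 and 3.47 FPKM in the pubertal and 14.0, 10.3 and 6.50 in the prepubertal libraries. It shared 392 bases at 100% identity with TCONS_01679089 and 399 at 99.5% with TCONS_01773531, both from its own locus. In each further sum below the transcripts also came from a single locus. When FPKM was summed over the 3 transcripts, a step chosen after the values were seen, pubertal replicate 2 had 5.68 FPKM and the CV was 49.1% in place of 76.4%. A like change was found for TCONS_03895552 (XLOC_1868308, 796 nt), which had 12.8, 1.28 and 8.42 FPKM in the pubertal and 9.05 to 10.5 in the prepubertal libraries. Summed with TCONS_03935032 (726 bases at 99.9% identity) and TCONS_03935034 (622 bases at 98.7%), it had 10.6 FPKM in pubertal replicate 2, and the CV was 19.2% in place of 42.5%. For TCONS_02851850 the CV of the sum was 33.4% in place of 59.5%, and for TCONS_04294308 with TCONS_04294309 it was 22.6% in place of 36.5% for the short and 19.6% for the long transcript. For TCONS_02612186 it was 60.2% in place of 63.1%, and for TCONS_04301814 37.1% in place of 36.9%. It was 36.7% before and after for TCONS_00707731, 21.5% in place of 23.3% for TCONS_01955722 and 17.9% in place of 19.9% for TCONS_03908918. The cause of these changes was not tested. The authors' counting could split reads between near-identical transcripts of a locus, so the level of any 1 of them is uncertain.

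**Figure D4:**
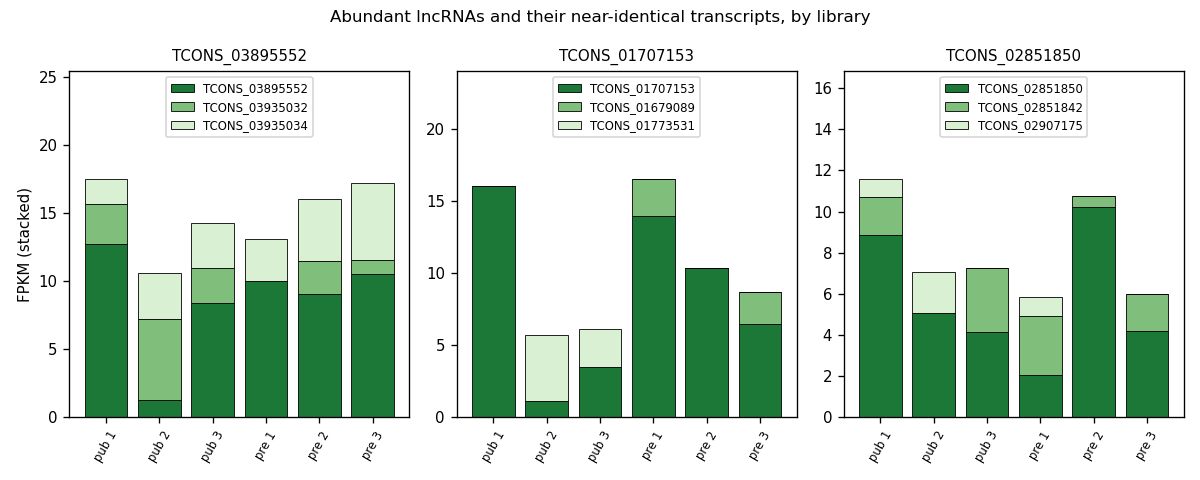
Stacked FPKM by library (pub, pubertal; pre, prepubertal; 1 to 3, replicate) of 3 abundant lncRNAs in dark green and near-identical transcripts of the same locus in lighter green. The single low value of TCONS_03895552 in pubertal replicate 2, 1.28 FPKM, stands on a summed level of 10.6.

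The pubertal and prepubertal libraries were then compared with limma on log2(FPKM + 1), fitted to the 2925 lncRNAs whose mean reached 0.1 FPKM. None of the 68 passed at an adjusted p-value under 0.05 (Benjamini-Hochberg over all 2925), 0 against 0.0342% (1 transcript) of all those tested. At an unadjusted p-value under 0.05 there was 1 of 68 (1.47%), against 3.52% of all tested. The libraries of the stages did not overlap for 8 of the 68 (11.8%), against 6.67% of all tested. Of these 8, 2 were higher in the pubertal goats (2.87% of all tested were higher without overlap) and 6 were lower (3.79%). The transcripts were selected on the mean over both stages, and 8 of the 68 reached it while 1 stage lay under 5 FPKM, so for them the selection was not independent of the stage difference. These 8 held 3 of those without overlap (TCONS_01522130, TCONS_01962857 and TCONS_00159803). Of the 60 with at least 5 FPKM in each stage, 5 did not overlap (8.33%) and 0 had an unadjusted limma p-value under 0.05. Differences on the log2(FPKM + 1) scale understate the change of low values.

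The log2 differences (pubertal minus prepubertal) of the 68 ranged from -0.99 to 0.42, with a median of -0.08 against -0.03 over all tested. They were above 0 for 23 of the 68 (33.8%) and for 46.4% of all tested. After centring every library to its own median the count above 0 was 30, and with quantile normalization it was 33, so the split depended on the scaling. The difference was smaller than 1.2-fold in FPKM + 1 either way for 45 of the 68. The 95% confidence interval lay within a 2-fold difference in FPKM + 1 either way for 45 as well. For the other 23 a change of that size could not be bounded at this number of goats. Folds of FPKM + 1 are smaller than those of FPKM itself. In the leading 10 the differences ran from -0.35 to 0.23, with standard errors from 0.16 to 0.54. The lowest, that of TCONS_03476274, was -0.70 without pubertal replicate 1, -0.21 without pubertal replicate 2 and -0.14 without pubertal replicate 3. The highest, that of TCONS_00183339, was 0.15, 0.47 and 0.06 without the same libraries in turn.

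**Figure D5:**
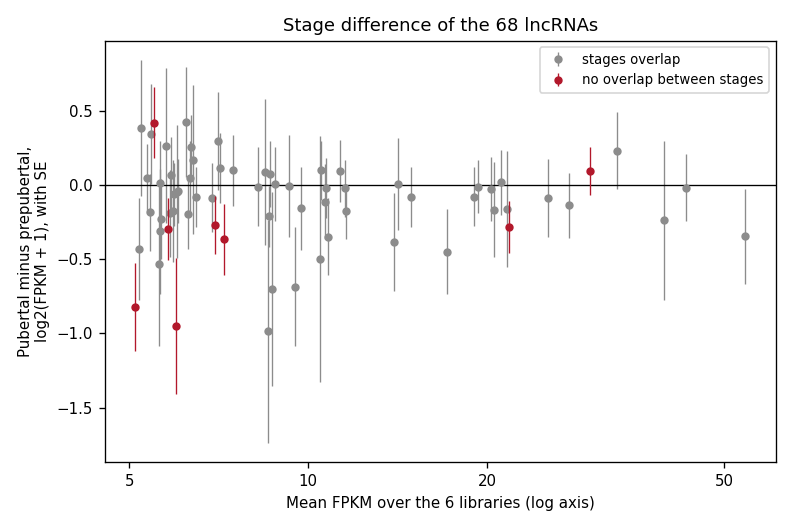
Pubertal minus prepubertal difference on the log2(FPKM + 1) scale with its SE (limma, 3 libraries per stage) against mean FPKM on a log axis for the 68 lncRNAs. The 8 whose stages did not overlap are red, and differences beyond 0.5 either way stand under 20 FPKM, all of them below 0.

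TCONS_01522130 (XLOC_767346, 450 nt), the lowest of the 68 in level, had 5.40, 2.41 and 2.76 FPKM in the pubertal and 6.35, 7.56 and 6.24 in the prepubertal libraries. Each pubertal library lay below each prepubertal library. The stage means were 3.52 and 6.72 FPKM, so it reached the mean of 5 FPKM only through the prepubertal goats, and its contrast is given as a description. The difference was -0.82 (SE 0.29, limma, adjusted p = 0.943). Leaving out any 1 of 5 libraries, all but pubertal replicate 1, took the unadjusted limma p-value past the threshold. It was the only one of the 68 with an unadjusted p-value under 0.05.

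TCONS_01962857 (XLOC_960044, 365 nt) had 1.27, 4.59 and 6.48 FPKM in the pubertal and 6.95, 7.41 and 9.22 in the prepubertal libraries. The stages did not overlap, pubertal replicate 1 stood far below the rest, and the pubertal mean of 4.11 FPKM was under the threshold. The difference was -0.95 (SE 0.46, limma, adjusted p = 0.943), and without pubertal replicate 1 it was -0.45.

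TCONS_02126369 (XLOC_1101518, 1351 nt) had 5.60, 6.31 and 6.40 FPKM in the pubertal and 10.9, 7.05 and 6.98 in the prepubertal libraries. The gap between the stages was narrow apart from prepubertal replicate 1, and the difference was -0.37 (SE 0.24, limma, adjusted p = 0.943) and -0.18 without that library. ABCB6, a gene for a transporter of the mitochondrial and other membranes within 10 kb, was also highest in prepubertal replicate 1, at 15.8 FPKM against 10.9 to 13.1. ZFAND2B, also within 10 kb, was highest in pubertal replicate 2, at 20.9 FPKM against 19.3 in prepubertal replicate 1. TCONS_01976358 had 17.8, 20.7 and 20.2 FPKM in the pubertal and 24.8, 25.0 and 22.2 in the prepubertal libraries, a difference of -0.28 (SE 0.18, limma, adjusted p = 0.943). SLC38A10, an amino acid transporter gene within 10 kb, lay the other way, with 16.1, 17.4 and 15.8 FPKM in the pubertal and 14.9, 14.2 and 14.3 in the prepubertal libraries. ENTHD2, also within 10 kb, overlapped between the stages, with 3.97 to 6.31 FPKM in the pubertal and 4.72 to 5.66 in the prepubertal libraries. No test of these genes was made. TCONS_01976358 also held the longest open frame of the 68, at 203 codons.

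TCONS_02963513 (XLOC_1435365, 2390 nt) had 5.34, 4.14 and 5.91 FPKM in the pubertal and 6.20, 6.40 and 6.88 in the prepubertal libraries, a difference of -0.30 (SE 0.21) that was -0.18 without pubertal replicate 2. TCONS_01971605 (XLOC_979726, 740 nt) had 6.38, 5.52 and 6.82 FPKM in the pubertal and 7.12, 7.99 and 8.07 in the prepubertal libraries, a difference of -0.27 (SE 0.20). Neither passed after adjustment. TCONS_00159803 (XLOC_087449, 891 nt) lay higher in the pubertal libraries, with 5.06, 5.98 and 8.43 FPKM against 4.33, 4.35 and 4.86. Its difference was 0.42 (SE 0.24, limma, adjusted p = 0.943), and without pubertal replicate 3, its highest library, it was 0.24. Its prepubertal mean of 4.51 FPKM was under the threshold. TCONS_03153667 differed by 0.09 (SE 0.16, 95% interval -0.29 to 0.48), the smallest difference among the 8 without overlap.

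The study names 5 more of these loci in its text or tables besides XLOC_083680, XLOC_1101518 and XLOC_960044, and XLOC_032671 with its wide spread is among the 5. The study also measured XLOC_1101518, XLOC_960044, XLOC_032671 and XLOC_2056339 by quantitative PCR in the same tissues, which was not compared here. TCONS_02866801 (XLOC_1375793, 3856 nt) had 16.6, 13.4 and 13.3 FPKM in the pubertal and 15.2, 17.1 and 13.7 in the prepubertal libraries. ME2, a gene for a mitochondrial malic enzyme within 10 kb, had a mean of 34.9 FPKM. TCONS_04948042 (XLOC_2423839, 5457 nt) had 12.4, 9.66 and 9.76 FPKM in the pubertal and 10.3, 11.7 and 10.2 in the prepubertal libraries. TCONS_00483237 (XLOC_263620, 5361 nt) had 10.3, 6.49 and 6.69 FPKM in the pubertal and 7.17, 7.32 and 6.84 in the prepubertal libraries. The stages overlapped for all 3. FOXB1, a transcription factor gene of the mammillary region within 10 kb of TCONS_00483237, ranged from 1.97 to 7.74 FPKM and was lowest in pubertal replicate 1, where the lncRNA was highest.

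TCONS_04301814 (XLOC_2056339, 3469 nt) stood out for 1 library: it had 4.99, 5.10 and 12.6 FPKM in the pubertal and 4.72, 5.83 and 4.26 in the prepubertal libraries. The difference between the stages was 0.42 (SE 0.37, limma, adjusted p = 0.943), and without pubertal replicate 3 it was 0.03. In the same library the summed level of 5 choroid plexus genes was 328 FPKM against 4.58 to 56.5 in the other 5. TTR, the thyroid hormone carrier of the choroid plexus, had 309 FPKM there against 1.14 to 53.4, and KCNJ13, a potassium channel gene, had 14.4 FPKM against 1.43 to 1.86. CLIC6, FOLR1 and AQP1 were low, under 2.5 FPKM in every library, and were also highest in pubertal replicate 3. Genes of other lists also peaked there, such as POMC at 429 FPKM against 22.9 to 85.1 and GH1 at 7.79 against 0. The summed levels of the hypothalamic peptide and anterior pituitary lists did not peak there. The part of any of these genes in the level of TCONS_04301814 was not tested. In bulk tissue, fewer cells of a type and less RNA per cell cannot be told apart.

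TCONS_03684134, with the T cell receptor frame, had 7.23, 12.9 and 7.61 FPKM in the pubertal and 9.88, 8.76 and 11.9 in the prepubertal libraries, and the stages overlapped. Genes of the T cell receptor complex were looked up after this was seen. CD3E lay between 1.56 and 3.74 FPKM, CD3D and CD3G were under 0.8 FPKM in every library, and CD247 lay between 18.9 and 25.4 FPKM. Which cells the transcript came from was not tested.

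The abundant lncRNAs were also set beside the lncRNAs as a whole in sequence features, of which the selection used length alone. Their median GC content was 54.1% against 47.7% for all 2943 and 47.4% for the 2453 longer than 300 nt. It ranged from 32.1% in TCONS_04948042 to 68.4% in TCONS_03917972. GC content was 54.7%, 55.0% and 51.8% at the median in the bands of up to 500, over 500 to 1500 and over 1500 nt. Median length was 882 nt against 793 nt for all those longer than 300 nt, with 7 of the 68 at 4000 nt or more.

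The longest frame from an ATG to a stop codon had a median of 64.5 codons against 56 for the lncRNAs longer than 300 nt. It was longer than 100 codons in 13 of the 68 (19.1%) and in 12.8% of those longer than 300 nt. The poly(A) signals AATAAA or ATTAAA stood in the last 60 nt of 11 (16.2%), against 10.5%. Sequence found at 10 or more other lncRNA loci, as dispersed repeats are, was present in 12 of the 68 (17.6%) against 28.2%, and TCONS_00895218 matched transcripts at 363 other loci. An alignment to another locus that was near-identical over its whole length was found on the same strand for 2 of the 68 (2.94%) and on the opposite strand for 3 (4.41%), against 1.39% and 1.83%. This count leaves out the pair of ranks 2 and 4, whose alignment had a lower identity as a whole. These are descriptions of the 68, without a test.

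The study's list of genes within 10 kb gave a neighbour for 45 of the 67 loci of the abundant lncRNAs (67.2%), against 1150 of all 2551 loci (45.1%). The 69 neighbouring genes had a median of 12.6 FPKM against 5.98 for all genes of the mRNA table, with FPKM summed over the transcripts of a gene. Levels of genes beside other lncRNA loci were not computed, so this is not shown to be a trait of the abundant lncRNAs. In 32 of the 70 pairs of locus and gene the lncRNA had the higher mean level. As the lncRNAs were selected for their level, this count is descriptive, and other loci were not counted. The lncRNA of rank 12, TCONS_02961508, had 20.3 FPKM beside 2.34 for ZFAND2A. TCONS_02131240 of rank 14 had 19.0 FPKM beside 147 for SDHB, a subunit of succinate dehydrogenase. ATP13A2, also within 10 kb of TCONS_02131240, was below the lncRNA, at 11.7 FPKM. FPKM is per length, so these levels can be set side by side. The lncRNA level is that of a single transcript, and the gene level is a sum over transcripts.

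Of the facts that touch all libraries, pubertal replicate 2 held the highest value for 4 and the lowest for 16 of the 68, whereas prepubertal replicate 3 held the highest for 16 and the lowest for 10. Over all lncRNAs tested, these libraries were the highest for 11.7% and 17.0%, against 5.88% and 23.5% of the 68. The summed lncRNA FPKM was 3611 in pubertal replicate 2 and 4321 to 4930 in the other libraries. Of 12 hypothalamic peptide genes looked up, 9 were found, and OXT, TRH and HCRT were not. PMCH (673 to 2173 FPKM) and SST (142 to 218) were high in all libraries. Others ranged widely between goats: AGRP from 5.69 to 176 FPKM, NPY from 20.3 to 192 and POMC from 22.9 to 429. AVP, which this tissue is known to express, was listed at 0 in all 6 libraries, so a 0 does not show that an RNA was missing. Of the 6 anterior pituitary genes 5 were found, with GH1 listed at 0 in all libraries but pubertal replicate 3. Their summed level, led by CGA, was 52.8 to 66.0 FPKM in the pubertal and 3.75 to 20.8 in the prepubertal libraries. The summed level therefore separated the stages, as did CGA and TSHB, while GH1, LHB and POU1F1 overlapped between them. LHB had 0.306 to 1.16 FPKM in the pubertal and 0.707 to 0.957 in the prepubertal libraries. Several other lists were looked up as well, and no test of any list was made. The part of the anterior pituitary sum in the stage differences of the lncRNAs was not tested.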

How the data were processed

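Hypothalamus of 3 pubertal and 3 prepubertal goats was sequenced as ribosome-depleted, strand-specific paired-end RNA libraries, 1 per goat. The authors aligned reads by TopHat, built transcripts from them with Cufflinks 2.1.1 and Scripture, kept those without coding potential, and deposited FPKM per transcript and library, with the lncRNA sequences and a Cuffdiff 2.1.1 comparison whose fold changes and p-values were not used. The genome build is not given in the sources used here. Depth per value is unknown, and the number of libraries limits precision. Per-sample columns left unused numbered 0.

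Levels, CV and shares were computed in Python 3.11.15, and stages were compared on log2(FPKM + 1) by limma 3.58.1 (R 4.3.3, two-sided, eBayes with trend) over all lncRNAs with a mean of at least 0.1 FPKM, and tested on simulated data. Sequences were matched with blastn 2.17.0 (E-value limit 1e-10, at least 80 nt, near-identical from 95% identity over 90 nt, summed from 200 nt). The members and lists were chosen with earlier results of these data known. Named transcripts were the 10 highest, those with an unadjusted p-value under 0.05 and no overlap, the 3 widest and 3 steadiest by CV, those named by the study, those at the threshold and those sharing a locus. Others, such as the remaining ones without overlap, TCONS_03684134, TCONS_03895552, TCONS_02851850, TCONS_00707731, TCONS_01955722, TCONS_03908918, TCONS_02961508, TCONS_02131240 and TCONS_03917972, were chosen after their values were seen. Matches to goat miRNAs, proteins and promoters were not analysed here. Neighbour names came from the study's list, and marker symbols from a RefSeq table (ARS1.2, names only), to which 19083 of 20225 genes (94.4%) matched. Alternatives were other pseudocounts, minima, scalings and limma settings, a joint fit with mRNAs, a replicate block, sums by locus, and leaving out each library.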

Additional observations from a re-analysis of the deposited data

How the results depend on the processing

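The number of abundant lncRNAs at an adjusted p-value under 0.05 was 0 in each setting tried (limma), while the count at an unadjusted p-value under 0.05 moved from 1 (3.52% of all tested) to 2 with lncRNAs and mRNAs fitted together (6.05%), to 0 with the replicate block (3.42%), and between 0 and 5 when 1 library was left out (3.62% to 4.82%), 5 of them without pubertal replicate 1 (4.38%). The same-numbered libraries of the 2 stages did not deviate together (r = -0.02, 0.01 and 0.04 over transcripts), so the numbers were not taken to pair goats. Without 1 library the count of lncRNAs whose stages did not overlap lay between 9 and 17 in place of 8, beside 14.2% to 15.7% of all tested in place of 6.67%, with fewer libraries to overlap. The share of the summed FPKM was 30.6% with the sum over lncRNAs longer than 300 nt in place of 19.0%, a smaller base. The ratio of the median CV of lncRNAs of up to 500 nt to that of those over 1500 nt was 2.13, and 2.10 to 2.95 without 1 library. The median CV was 18.0% to 21.3% without 1 library. No direction of a stage difference given for a single lncRNA was reversed. For the 8 without overlap this is no check, except under the changed scalings. Leaving out a library or changing the other settings could not reverse them. A median of at least 5 FPKM gave 65 lncRNAs and a mean of at least 5 in each stage gave 60, 63 and 60 of them among the 68.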
